A study of Homo sapiens with 9 samples.

Results

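The transcripts described here are the genes that GENCODE version 19 lists as processed_transcript, sense_overlapping or sense_intronic on chromosomes 1 to 22 except 19. Genes whose names start with SNHG or ANKRD were left out by the rule, as were GAS5, ZFAS1, H19, MEG3, KCNQ1OT1, LINC00641 and SOX2-OT, 15 genes in all. The rule used the gene type, the chromosome and the name and no measured value. It took 1308 of the 57820 genes of the count table, 451 of type processed_transcript, 187 of type sense_overlapping and 670 of type sense_intronic. A processed_transcript gene has spliced or unspliced RNAs with no long open reading frame that were given no narrower class. A sense_overlapping gene is annotated as overlapping or enclosing a protein-coding gene of its own strand, and a sense_intronic gene lies in an intron of such a gene without touching its exons.

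Chrom-seq labels RNA near a chromatin mark in living cells. A reader domain that binds the mark carries repeats of the GCN4 peptide, and these recruit the peroxidase APEX2 through a single-chain antibody fragment (scFv). APEX2 turns biotin-aniline into a short-lived radical that biotinylates nearby RNA, which is then captured on streptavidin beads and sequenced. The reader was the chromodomain of CBX1 (HP1 beta), which binds histone H3 trimethylated at lysine 9 (H3K9me3), a mark of heterochromatin that covers repeats and many clustered zinc finger genes. CBX1_W42A carries alanine in place of a tryptophan of the aromatic cage with which chromodomains hold the methylated lysine. Noncoding RNAs that stay in the nucleus can be kept near the site of their transcription or bind chromatin elsewhere, and Chrom-seq does not separate these cases.

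The study compared 3 groups of 3 Chrom-seq libraries each, all from HEK293T, a human embryonic kidney cell line that carries adenovirus E1 genes and SV40 large T antigen. Cells of every group expressed the GCN4 and APEX2 constructs for 48 h from transfected plasmids, were given 500 µM biotin-aniline for 30 min and were treated with 1 mM H2O2 for 1 min. The groups differed in the reader: the CBX1 chromodomain, CBX1_W42A, or a control vector with no reader. Library labels of every group, the control included, also carry the letters NLS, which they do not explain. Poly(A)+ RNA was selected from the captured RNA before a Smart-seq protocol, so that transcripts without a poly(A) tail were selected against in all groups. RNA from the same cells without capture was not analysed here, so more RNA of a transcript in the cells, more cells that carry it and a larger captured share of it cannot be told apart. The labels do not say whether the 3 libraries of a group came from separate cultures, and they name no sequencing batch or date. The p-values thus measure the spread between these libraries. The sample records of control and CBX1 are numbered in 1 run, and those of CBX1_W42A in a separate, later run. Whether the CBX1_W42A libraries were prepared together with the others is not stated. In both comparisons that use CBX1_W42A, the reader and any such difference in preparation cannot be told apart.

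The start regions of 4 transcripts named in the comparisons below are shown. PTPRG-AS1 and Z84812.4 were the members that differed between CBX1 and CBX1_W42A. RP11-933H2.4 and RP4-605O3.4 were among those that passed the test with both readers against the control. Each window runs from 250 bases before to 50 bases after the annotated start on hg19 (GRCh37), read 5′ to 3′ on the strand of the transcript, with every CG dinucleotide in capitals.
PTPRG-AS1, chr3:62354956-62355255, minus strand: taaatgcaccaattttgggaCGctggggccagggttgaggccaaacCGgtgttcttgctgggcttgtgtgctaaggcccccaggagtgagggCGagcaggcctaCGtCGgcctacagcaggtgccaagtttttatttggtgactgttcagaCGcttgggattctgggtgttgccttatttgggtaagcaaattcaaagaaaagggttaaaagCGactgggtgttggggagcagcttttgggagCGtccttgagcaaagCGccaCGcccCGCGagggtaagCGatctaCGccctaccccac
Z84812.4, chr16:85146-85445, minus strand: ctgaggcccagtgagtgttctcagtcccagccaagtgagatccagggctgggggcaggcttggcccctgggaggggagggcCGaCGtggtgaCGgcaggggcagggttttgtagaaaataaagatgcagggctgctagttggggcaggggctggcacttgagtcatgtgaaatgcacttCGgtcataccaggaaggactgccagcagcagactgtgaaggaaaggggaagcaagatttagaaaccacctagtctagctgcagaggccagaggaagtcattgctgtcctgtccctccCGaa
RP11-933H2.4, chr3:131100270-131100569, minus strand: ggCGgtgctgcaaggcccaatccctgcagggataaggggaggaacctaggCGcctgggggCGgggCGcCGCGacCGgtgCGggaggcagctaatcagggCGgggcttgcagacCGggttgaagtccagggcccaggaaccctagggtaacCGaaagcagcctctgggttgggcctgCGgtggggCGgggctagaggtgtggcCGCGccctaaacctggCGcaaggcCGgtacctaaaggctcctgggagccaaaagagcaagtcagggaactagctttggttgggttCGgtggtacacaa
RP4-605O3.4, chr12:50505730-50506029, plus strand: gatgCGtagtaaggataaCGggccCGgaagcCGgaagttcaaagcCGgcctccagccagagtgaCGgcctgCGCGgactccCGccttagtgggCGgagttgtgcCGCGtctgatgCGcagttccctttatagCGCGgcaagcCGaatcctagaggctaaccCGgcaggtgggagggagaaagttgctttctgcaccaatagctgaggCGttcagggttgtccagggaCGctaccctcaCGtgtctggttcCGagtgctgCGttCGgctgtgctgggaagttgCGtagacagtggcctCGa
The windows held 14, 5, 18 and 25 CG dinucleotides in that order. The median was 5 over the windows of all 57820 genes and 4 over the 1308 members. Searched on both strands, the letters TATAAA stood only in the RP4-605O3.4 window among these 4, and CCAAT in the windows of PTPRG-AS1, RP11-933H2.4 and RP4-605O3.4. Over all genes, 17.6% of such windows held TATAAA and 36.5% held CCAAT, against 17.0% and 34.0% of the members' windows. Among the members, those enriched with CBX1 (defined below) had a median of 13.5 CG dinucleotides and the other tested members 9, and 36.0% against 34.7% had at least 20. TATAAA stood in 4% of the windows of the enriched members and in 13.4% of the other tested members. These shares are descriptions of annotated starts, which were not measured here.

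The libraries held 8379542 to 11082852 counts and 21709 to 23819 genes with a count, without overlap between the control libraries (up to 21876 genes) and those of either reader. All 5 HEK293T marker genes of the list (NEFL, NEFM, PAX2, LHX1 and EPCAM) were above 1 CPM (counts scaled to a common library total) in every library. CD3E and HBB, markers of T cells and red cells, had 0 counts everywhere, PTPRC of leukocytes and HBA1 of red cells reached at most 0.193 and 0.113 CPM, and the endothelial markers CDH5 and VWF at most 0.546 CPM. The liver markers ALB and APOA1 reached 2.78 CPM in the highest library and neither was above 1 CPM in every library. Levels are given here as CPM scaled by TMM factors over the 9 libraries.

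Most of these transcripts could not be measured at all in this table. The table lists the full genomic span, introns included, as the length of all 57820 genes, and all 7910 genes that lie entirely inside another gene of the same strand had 0 counts. Of the 9345 genes nested in a gene of the other strand and touch none on their own, 3771 had counts. A read in a stretch shared by genes of 1 strand was thus assigned to none of them, while genes inside one of the other strand could have counts. Among the members, 739 (56.5%) lay inside another gene of their strand, and 653 of the 670 sense_intronic genes (97.5%) did so. All 119 members with an intronic transcript symbol (-IT) were among the members inside another gene. For these 739 transcripts a count of 0 says nothing of their RNA.

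**Figure D1:**
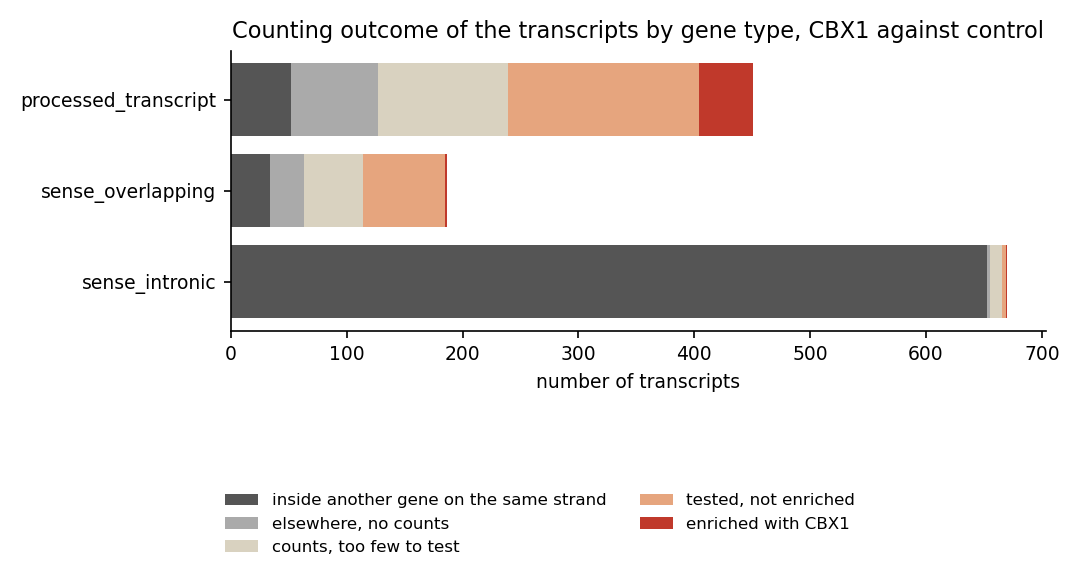
Number of transcripts of each gene type (horizontal axis) by what the count table allowed in the comparison of CBX1 with control; colours part each bar into transcripts inside another gene of the same strand, transcripts elsewhere without counts, transcripts with counts too low to test, and tested transcripts that were or were not enriched. The sense_intronic bar consists almost entirely of the 653 transcripts inside another gene, and 47 of the 50 enriched transcripts are in the processed_transcript bar.

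Outside other genes, 106 members had no counts and 174 had counts that summed to 18 or less over the 6 libraries of CBX1 and control. The remaining 289 members were tested in that comparison: 212 processed_transcript, 73 sense_overlapping and 4 sense_intronic. For CBX1_W42A against control 285 members were tested, and for CBX1 against CBX1_W42A 298. Of the 289, 150 shared no stretch with a gene of their own strand and 139 shared some, so that their counts come from the rest of their span. In GENCODE version 44, 1169 of the 1308 identifiers were still listed, 1079 of them as lncRNA and 40 as protein coding. CASP8AP2, a factor of histone mRNA processing, is 1 of the latter.

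The members took a larger part of the library with either reader than with the control. They received 0.252 to 0.268% of the counts in the control libraries, 0.325% in each CBX1 library and 0.296 to 0.307% in the CBX1_W42A libraries, so that the 3 groups did not overlap. The processed_transcript genes alone had 0.225 to 0.240%, 0.289 to 0.294% and 0.265 to 0.274%. Without C17orf76-AS1, the member with the most counts, the shares of all members were 0.221 to 0.236%, 0.286 to 0.291% and 0.259 to 0.274%, again in that order. The sense_overlapping genes had 0.0251 to 0.0278% with the control, 0.0298 to 0.0350% with CBX1 and 0.0310 to 0.0330% with CBX1_W42A: both readers lay above the control, and their ranges overlapped. The number of members with a count was 348 to 354 with the control, 373 to 385 with CBX1 and 363 to 374 with CBX1_W42A. More genes of the whole table had a count with a reader too, and what part this had in the shares was not tested.

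**Figure D2:**
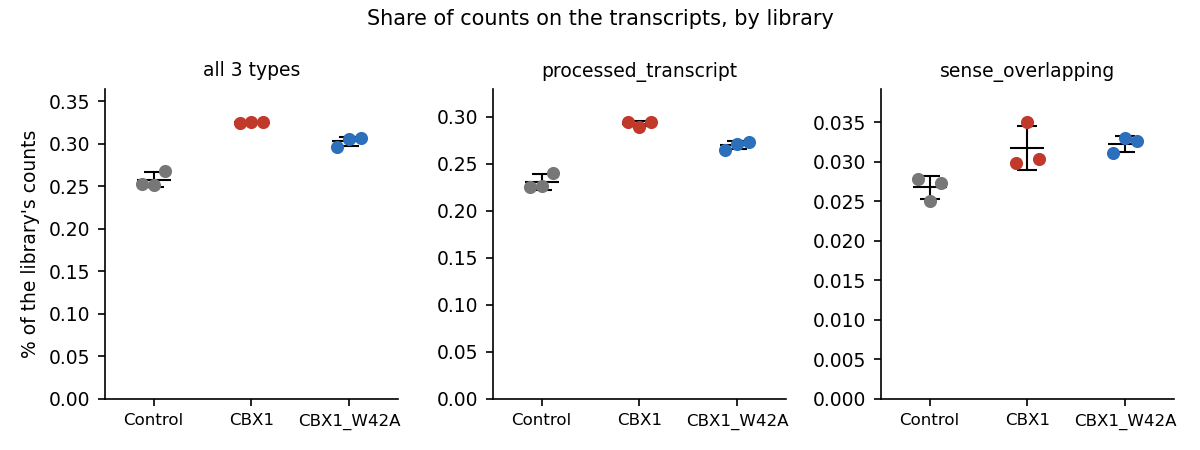
Percent of each library's counts (vertical axis, from 0) that fell on all 1308 transcripts, on the processed_transcript genes and on the sense_overlapping genes; each point is a library, and the bar with whiskers is the mean ± SD of 3 libraries. In the panel of all types the CBX1 libraries lie highest and the control libraries lowest, without overlap.

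The first comparison asked which of the transcripts were captured more with the CBX1 reader than without a reader. Of the 289 tested members, 50 (17.3%) were enriched, that is, passed edgeR's quasi-likelihood test at a Benjamini-Hochberg adjusted p below 0.05 with a log2 fold change of at least 0.75. Over all 18837 genes tested the share was 7.06%. None of the members was depleted at the same thresholds, against 0.34% of all genes. At an unadjusted p below 0.05, 5 of the 289 members were lower, against 3027 of all 18837 genes tested. DESeq2 called 0 members depleted as well. The log2 fold changes of the enriched members ran from 0.76 to 3.81 with a median of 1.34, and in 48 of the 50 the lowest CBX1 library exceeded the highest control library. This was so in 110 of all 289 tested members (38.1%) and in 3321 of all 18837 genes tested (17.6%), and a member that passes the test will mostly show it. Over all 289 members the median log2 fold change was 0.48, against 0.03 over all genes tested, and 232 were positive.

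By gene type, 47 of 212 processed_transcript genes were enriched, 2 of 73 sense_overlapping genes and 1 of 4 sense_intronic genes. Their median log2 fold changes were 0.53, 0.26 and 1.02. Other noncoding classes outside chromosome 19 gave shares near that of the members: 266 of 1743 antisense genes (15.3%, median 0.50) and 190 of 1178 lincRNA genes (16.1%, median 0.61) were enriched. Protein-coding genes outside chromosome 19 had 574 of 12851 enriched (4.47%) and a median of −0.05. The differences between these classes were not tested. The classes also differed in level: the median control level was 2.25 CPM for the tested members, 1.23 CPM for antisense genes, 0.884 CPM for lincRNA genes and 31.4 CPM for protein-coding genes.

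Level and span went with the share called. In 4 equal bins of the members by control level, from the lowest, 13 of 73, 16 of 72, 17 of 72 and 4 of 72 were enriched. The highest bin had a median control level of 15.3 CPM and a median log2 fold change of 0.24, and the lowest bin had 0.488 CPM and 0.94. By length of span, in 4 equal bins from the shortest, 3 of 73, 14 of 72, 15 of 72 and 18 of 72 were enriched, with median spans of 3088, 15263, 39125 and 104269 bp. Members that shared part of their span on the same strand had 29 of 139 enriched (median log2 fold change 0.68), and those that shared none had 21 of 150 (0.34). A gene on the other strand made less of a difference in these counts, with 32 of 170 enriched beside 18 of 119 without one. The 18 tested members within 100 kb of a ZNF gene, the family known for H3K9me3 over its clusters, had 3 enriched and a median of 0.43. The control level is also the base of the fold change. A member low in the control could pass the filter on summed counts through its CBX1 counts, so larger folds in the lowest bin are partly built in. These features are linked with each other, and which of them bears on the calls was not tested.

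**Figure D3:**
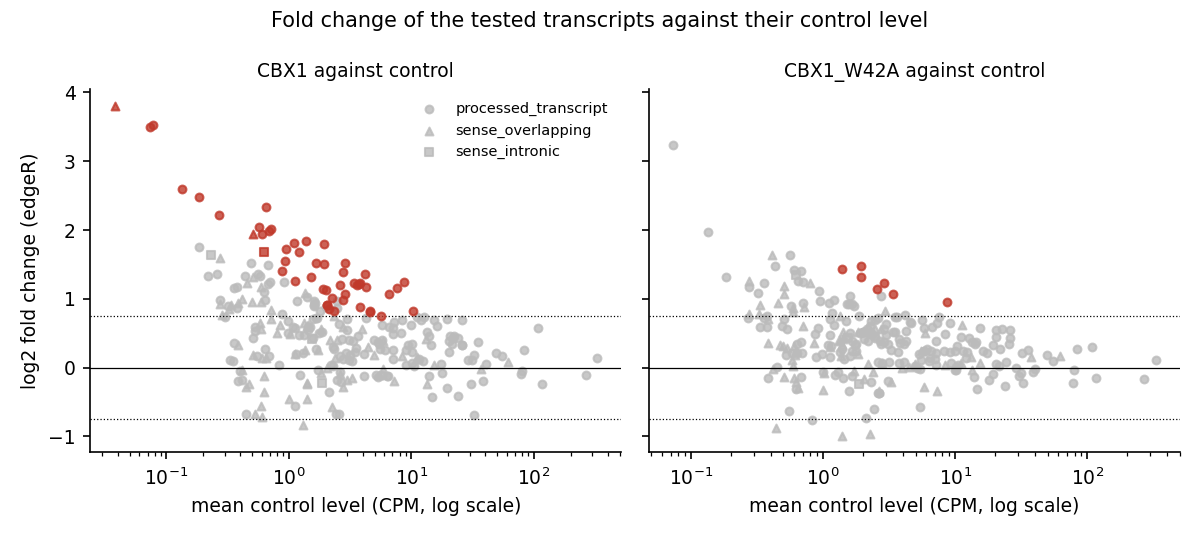
Log2 fold change (edgeR, vertical axis) against mean control level in CPM (horizontal axis, log scale) of each tested transcript, for CBX1 (left) and CBX1_W42A (right) against the same 3 control libraries; marker shape gives the gene type, red marks enriched transcripts and dotted lines mark log2 fold changes of 0.75 and −0.75. Of the tested members, 50 are red on the left and 7 on the right, and none is red below 0.

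The enriched members with the smallest p-values were processed_transcript genes with few counts in the control. They were named only if all their CBX1 libraries lay above all control libraries, so that order was fixed by the choice. RP11-106M3.2 (chr15:72577068-72668322, minus strand) runs over HEXA, which encodes a lysosomal hexosaminidase subunit, and over CELF6, an RNA-binding protein gene, and is listed as protein coding in GENCODE version 44. It had 7.21, 8.82 and 9.95 CPM in the control libraries, 19.4, 22.6 and 17.9 CPM in the CBX1 libraries and 13.1, 22.2 and 15 CPM in the CBX1_W42A libraries. All libraries of both readers were above the control, with a log2 fold change of 1.24 ± 0.16 (SE, n = 3 per group) for CBX1 and an adjusted p of 0.000132 in edgeR's quasi-likelihood test. Only 25.5% of its span was free of same-strand genes. CELF6, which shares 38.6% of it, was itself enriched with CBX1, by 3.11 ± 0.46 on the log2 scale (edgeR quasi-likelihood, adjusted p = 0.000357). That fold rests on a low control level, with means of 0.456 CPM in the control and 3.87 CPM with CBX1. Another CELF6 entry, which shares 38.8%, had 0 CPM in all groups.

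POLR2J4 (chr7:43980494-44058774, minus strand), a relative of the gene for an RNA polymerase II subunit, had 4.09, 4.29 and 4.13 CPM in the control libraries, 10.2, 11.9 and 9.57 CPM in the CBX1 libraries and 7.55, 7.37 and 6.24 CPM in the CBX1_W42A libraries. The 3 groups did not overlap, with CBX1 highest and CBX1_W42A between (CBX1 against control 1.36 ± 0.19, adjusted p = 0.000264 by edgeR's quasi-likelihood test). It keeps 14.1% of its span free of same-strand genes, and near-identical copies of this family make its counts uncertain. CTD-2555K7.2 (chr14:23171820-23235771, minus strand) had 2.05, 2.15 and 1.58 CPM in the control libraries, 7.67, 6.43 and 5.89 CPM in the CBX1 libraries and 4.55, 6.21 and 3.81 CPM in the CBX1_W42A libraries. All reader libraries lay above the control libraries, and CBX1 and CBX1_W42A overlapped. Its log2 fold change with CBX1 was 1.80 ± 0.26, with an adjusted p of 0.000276 by the same test. RP11-727A23.5 (chr11:82895533-82904836, minus strand), which lies opposite PCF11, a gene of mRNA 3′ end processing, had 7.01, 8.59 and 7.16 CPM in the control libraries, 12.7, 17.7 and 19.3 CPM in the CBX1 libraries and 11.8, 14.8 and 11.2 CPM in the CBX1_W42A libraries. Again both readers exceeded the control without overlap, by 1.16 ± 0.18 on the log2 scale for CBX1, while PCF11 gave 0.20 ± 0.09 (edgeR quasi-likelihood, adjusted p = 0.000565 and 0.13).

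RP4-605O3.4 (chr12:50505980-50559203, plus strand), whose CG-rich start is shown above, lies mostly opposite CERS5, a ceramide synthase gene. It had 3.7, 2.03 and 2.91 CPM in the control libraries, 8.22, 8.98 and 7.44 CPM in the CBX1 libraries and 6.55, 6.31 and 7.62 CPM in the CBX1_W42A libraries. All 6 reader libraries lay above the control libraries, and the log2 fold change with CBX1 was 1.52 ± 0.24 (edgeR quasi-likelihood, adjusted p = 0.000606), beside 0.02 ± 0.15 for CERS5. SPAG5-AS1 (chr17:26925808-26944393, plus strand) is antisense to SPAG5, a mitotic spindle gene. It had 2.82, 2.37 and 3.03 CPM in the control libraries, 8, 7.1 and 6.09 CPM in the CBX1 libraries and 4.55, 4.84 and 7.62 CPM in the CBX1_W42A libraries, with the control below both readers (CBX1 1.38 ± 0.24, edgeR quasi-likelihood adjusted p = 0.00104). RP11-192H23.4, a protein-coding entry on the other strand across 82.9% of its span, was also enriched with CBX1, by 0.99 ± 0.16. RP11-127I20.7 (chr16:4780116-4802566, minus strand) showed 0.877, 0.452 and 0.607 CPM in the control libraries, 2.67, 3.22 and 3.96 CPM in the CBX1 libraries and 1.27, 1.89 and 1.59 CPM in the CBX1_W42A libraries. The groups did not overlap, CBX1_W42A lay between, and the log2 fold change of 2.33 ± 0.40 with CBX1 (edgeR quasi-likelihood, adjusted p = 0.00104) stood beside 0.01 ± 0.11 for ANKS3, the coding gene with which it shares 19% of its span on the same strand.

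RP11-933H2.4 (chr3:131043936-131100319, minus strand) shares no stretch with a gene of its strand and lies opposite NEK11, a kinase gene. It had 2.14, 1.81 and 1.82 CPM in the control libraries, 6, 5.21 and 5.03 CPM in the CBX1 libraries and 4.55, 7.05 and 4.65 CPM in the CBX1_W42A libraries. Both readers were above the control and overlapped each other, and the log2 fold change with CBX1 was 1.5 ± 0.27 (edgeR quasi-likelihood, adjusted p = 0.00124), against −0.12 ± 0.17 for NEK11. TMEM51-AS1 (chr1:15442448-15478960, minus strand), named as antisense to TMEM51, gave 2.05, 1.24 and 0.849 CPM in the control libraries, 5.78, 5.43 and 3.87 CPM in the CBX1 libraries and 3.82, 3.89 and 3.7 CPM in the CBX1_W42A libraries. The control was again lowest in every pairing of libraries, and CBX1 was higher by 1.84 ± 0.34 (edgeR quasi-likelihood, adjusted p = 0.00149).

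RP11-514P8.8 (chr7:102123791-102184211, minus strand), which shares stretches with POLR2J3 and keeps 33.3% of its span free, had 6.62, 4.86 and 8.37 CPM in the control libraries, 13, 15.6 and 12.2 CPM in the CBX1 libraries and 7.82, 8.21 and 13.9 CPM in the CBX1_W42A libraries. CBX1 lay above the control, while CBX1_W42A overlapped the control and CBX1. The log2 fold change with CBX1 was 1.07 ± 0.20 (edgeR quasi-likelihood, adjusted p = 0.00172). RP11-467H10.2 (chr7:76673038-76827943, plus strand), 154906 bp long and sharing 49.2% of its span with CCDC146, had 3.02, 3.05 and 4.73 CPM in the control libraries, 8.11, 8.54 and 7.54 CPM in the CBX1 libraries and 6.19, 4.21 and 7.41 CPM in the CBX1_W42A libraries. CBX1 lay above the control and above CBX1_W42A, and CBX1_W42A overlapped the control. Its log2 fold change with CBX1 was 1.20 ± 0.23 (edgeR quasi-likelihood, adjusted p = 0.0022), and that of CCDC146 was −0.15 ± 0.15.

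**Figure D4:**
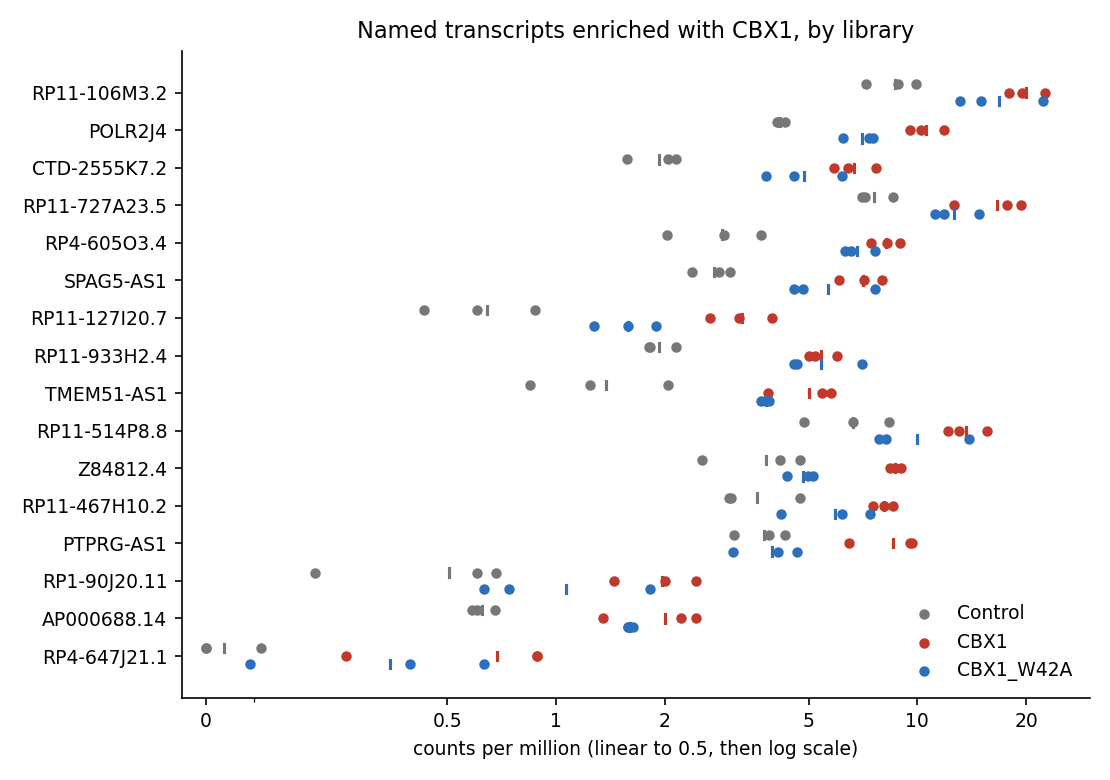
Level in CPM (horizontal axis, linear up to 0.5 and log above) of the 16 named transcripts that were enriched with CBX1, in order of p from the top; each point is a library, coloured by group, and the short line is the mean of 3 libraries. In all 16 the CBX1 libraries lie to the right of the control libraries, and the CBX1_W42A libraries lie on either side of the gap.

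By form of name, 6 of 36 tested antisense symbols (-AS), 3 of 9 LINC symbols, 34 of 199 clone-based names and 7 of 43 other symbols were enriched. The antisense symbols beside those above were ZRANB2-AS2 (log2 fold change 1.72 ± 0.36), APCDD1L-AS1 (1.18 ± 0.36, with overlapping groups) and LHFPL3-AS1. The LINC symbols were LINC00173 (1.01 ± 0.28), LINC00467 (0.76 ± 0.23) and LINC01006 (0.91 ± 0.30), the second of them the enriched member closest to the fold threshold. ATP1A1OS and LINC00476, both at 0.73 with adjusted p-values of 0.00331 and 0.00364 in edgeR's quasi-likelihood test, fell just outside it. Among the other symbols were FAM66A (2.01 ± 0.43) and FAM182A (1.99 ± 0.42), which belong to families with near-identical copies and are uncertain for that reason, SSPO (1.20 ± 0.31), the SCO-spondin gene that version 44 lists as a unitary pseudogene, and a processed transcript that carries the name of the zinc finger gene ZNF33B (1.51 ± 0.31, 23.2% of its span free). These names were chosen from the enriched members after their values were seen.

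LHFPL3-AS1, ENSG00000224609.2 and RP4-647J21.1 had the largest fitted fold changes, at 3.50, 3.53 and 3.81 on the log2 scale, and rest on 2, 2 and 1 counts in the 3 control libraries together. LHFPL3-AS1 had 1, 0 and 1 counts in the control libraries, 12, 5 and 10 in the CBX1 libraries and 10, 4 and 10 in the CBX1_W42A libraries. Per effective library size its 27 counts with CBX1 against 2 gave a ratio of 13, with a 95% exact interval of 3.27 to 113 that covers counting error only. ENSG00000224609.2 had 0, 1 and 1 counts in the control libraries, 8, 5 and 15 in the CBX1 libraries and 2, 2 and 2 in the CBX1_W42A libraries, a CBX1 to control ratio of 13.5 (interval 3.41 to 117). In both, CBX1 lay above the control in every library, and the size of the fold depends on very few control counts. Both passed the filter on low counts only through their CBX1 counts, so neither that order nor these intervals test the difference.

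The 2 members that passed the adjusted p in the other direction stayed above the fold threshold for depletion. TTC25, a gene of ciliary outer dynein arm docking, had 27.3, 39 and 30.8 CPM in the control libraries, 21, 22.2 and 15.9 CPM in the CBX1 libraries and 24, 33.7 and 25.7 CPM in the CBX1_W42A libraries. Its log2 fold change of −0.69 ± 0.15 (edgeR quasi-likelihood, adjusted p = 0.00473) passed −0.75 without Control replicate 1 (−0.81) or without CBX1 replicate 2 (−0.79), which made it the single depleted member under these 2 alternatives. ENSG00000250899.3 gave −0.42 ± 0.12 (adjusted p = 0.0262 by the same test).

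Among the sense_overlapping genes, 2 of 73 tested were enriched, a share below that of all genes. RP1-90J20.11 (chr6:3025025-3027659, plus strand) had 0.682, 0.226 and 0.607 CPM in the control libraries, 2, 2.44 and 1.45 CPM in the CBX1 libraries and 1.82, 0.631 and 0.741 CPM in the CBX1_W42A libraries. CBX1 was above the control without overlap and CBX1_W42A overlapped both, with a log2 fold change of 1.94 ± 0.50 for CBX1 (edgeR quasi-likelihood, adjusted p = 0.0131). RP4-647J21.1 (chr7:44998598-45000508, minus strand) had 0, 1 and 0 counts in the control libraries, 8, 8 and 3 in the CBX1 libraries and 1, 6 and 4 in the CBX1_W42A libraries. That gave a CBX1 to control ratio of 18.3 with a 95% exact interval of 2.91 to 761. RP4-647J21.1 passed the filter on low counts only through its CBX1 counts, so this interval is no test of the difference. The closest coding gene on its strand, MYO1G, a myosin gene that ends 1753 bp upstream, was also enriched, by 2.14 ± 0.56 (edgeR quasi-likelihood, adjusted p = 0.013). Without CBX1 replicate 2 the adjusted p of RP1-90J20.11 was 0.0526, and that of RP4-647J21.1 was 0.0566 to 0.0714 without Control replicate 1 or 3 or without CBX1 replicate 1 or 2.

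HCP5 and RP4-785G19.5 came next by p and were not called. HCP5 (chr6:31368479-31445283, plus strand), a noncoding gene of the HLA region, had 0.682, 1.58 and 1.82 CPM in the control libraries, 3, 2.77 and 2.61 CPM in the CBX1 libraries and 1.55, 1.26 and 1.69 CPM in the CBX1_W42A libraries. CBX1 exceeded both other groups without overlap, at 1.08 ± 0.38 against the control, and the adjusted p of 0.0555 (edgeR quasi-likelihood) was just outside the threshold and inside it (0.0374 to 0.0464) with library sizes alone, without the filter on low counts or with edgeR's own filter. RP4-785G19.5 (chr20:32822646-32868979, minus strand) had 13, 11.5 and 14.9 CPM in the control libraries, 17, 19 and 15.5 CPM in the CBX1 libraries and 14.2, 15.7 and 14.1 CPM in the CBX1_W42A libraries, with CBX1 above the control by 0.41 ± 0.15 (edgeR quasi-likelihood, adjusted p = 0.0638). AHCY, the adenosylhomocysteinase gene with which it shares 1.96% of its span, gave −0.38 ± 0.11, so the transcript and the gene lay on opposite sides of 0.

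Many sense_overlapping genes sit at the end of a coding gene rather than on it. Their median distance to the closest coding gene on the strand was 1320 bp, and 64 of the 73 tested lay within 5 kb of one: 24 overlapped it, 33 had it upstream and 7 downstream. Over all types, 108 tested members lay within 5 kb of a tested coding gene. Of these 108 members, 14 were enriched, 6 of the coding genes were enriched, and in 5 pairs both were. The median log2 fold change was 0.41 for the members of these pairs and −0.08 for the coding genes. For the sense_overlapping members alone it was 0.18 and −0.17 over 52 pairs. Among the 5 pairs, RP11-298P3.4 and N4BP2L1 gave 1.94 ± 0.50 and 2.15 ± 0.19, KB-1572G7.3 and C22orf43 gave 1.55 ± 0.42 and 1.65 ± 0.28, and AC017104.6 and B3GNT7 gave 0.86 ± 0.30 and 1.43 ± 0.34. Whether reads that run on from the coding gene enter the members' counts was not tested.

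Only 4 of the 670 sense_intronic genes could be tested. AP000688.14 (chr21:37441940-37498938, minus strand) was enriched. It shares 17.1% of its span with SETD4, a methyltransferase gene of its strand, and 82.9% is free of same-strand genes, so its counts come from outside SETD4. AP000688.14 had 0.584, 0.678 and 0.607 CPM in the control libraries, 2.22, 2.44 and 1.35 CPM in the CBX1 libraries and 1.64, 1.58 and 1.59 CPM in the CBX1_W42A libraries. Both readers were above the control without overlap, with 1.68 ± 0.46 for CBX1 (edgeR quasi-likelihood, adjusted p = 0.0174), while SETD4 gave −0.12 ± 0.12. Without Control replicate 1, CBX1 replicate 1 or CBX1 replicate 2 its adjusted p was 0.0529 to 0.0674. RP11-57H14.3 had 1, 2 and 3 counts in the control libraries, 7, 5 and 8 in the CBX1 libraries and 4, 7 and 1 in the CBX1_W42A libraries, with CBX1 above the control, a log2 fold change of 1.64 ± 0.72 and an adjusted p of 0.116 by edgeR's quasi-likelihood test. RP11-384L8.1 had 1.85, 1.58 and 1.21 CPM in the control libraries, 2, 1.89 and 2.22 CPM in the CBX1 libraries and 2.18, 2.1 and 2.01 CPM in the CBX1_W42A libraries, and RP11-705C15.3 had 0.877, 2.26 and 2.43 CPM in the control libraries, 1.56, 2.44 and 0.676 CPM in the CBX1 libraries and 1.36, 1.26 and 2.01 CPM in the CBX1_W42A libraries. Neither passed the test, with CBX1 log2 fold changes of 0.41 ± 0.37 and −0.22 ± 0.49 and edgeR quasi-likelihood adjusted p-values of 0.454 and 0.784.

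The members with the most counts had small fold changes. C17orf76-AS1, a host gene of small nucleolar RNAs, had 332, 326 and 326 CPM in the control libraries, 357, 332 and 382 CPM in the CBX1 libraries and 374, 303 and 384 CPM in the CBX1_W42A libraries, with overlapping groups and 0.15 ± 0.09 for CBX1 against control. CASP8AP2 had 245, 289.7 and 266 CPM in the control libraries, 248, 244 and 236 CPM in the CBX1 libraries and 231, 289 and 193 CPM in the CBX1_W42A libraries, with −0.11 ± 0.09 and overlapping groups. CTD-2228K2.7 had 109, 68.4 and 146 CPM in the control libraries, 149, 148 and 177 CPM in the CBX1 libraries and 132, 85.6 and 182 CPM in the CBX1_W42A libraries. Here CBX1 was above the control in every library (0.58 ± 0.18, edgeR quasi-likelihood adjusted p = 0.0309), yet under the fold threshold. Control replicate 2 was the lowest control library, and without Control replicate 3 the log2 fold change was 0.86 and the transcript was called (adjusted p = 0.00382). NEFL, the neurofilament light chain gene, which version 19 lists as a processed transcript, had 126, 112 and 112 CPM in the control libraries, 93.3, 100.5 and 97.9 CPM in the CBX1 libraries and 122, 95.9 and 97 CPM in the CBX1_W42A libraries, with CBX1 below the control (−0.24 ± 0.09, edgeR quasi-likelihood adjusted p = 0.0738). Per kb of exon in version 44, C17orf76-AS1 had a mean of 38.7 CPM over the 9 libraries. LINC00680 had 151 CPM per kb on that scale, but only 181 bases of exon were listed for its span of 15428 bp.

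Well-known long noncoding RNAs and microRNA hosts were mostly present and not enriched. DLEU2, the host of miR-15a and miR-16-1, had 25, 26 and 26.6 CPM in the control libraries, 43.1, 37.9 and 41.8 CPM in the CBX1 libraries and 38, 40.6 and 34.1 CPM in the CBX1_W42A libraries. Both readers exceeded the control in every library, and CBX1 passed the adjusted p (0.69 ± 0.11, edgeR quasi-likelihood adjusted p = 0.000559) but not the fold of 0.75, which it passed (0.78) with library sizes alone. MIR17HG, the host of the miR-17-92 cluster, had 20.7, 18.3 and 22 CPM in the control libraries, 25.7, 26.3 and 26.2 CPM in the CBX1 libraries and 29.5, 29.7 and 30.2 CPM in the CBX1_W42A libraries. Its order differed: CBX1_W42A was highest, CBX1 between and the control lowest, without overlap, with 0.39 ± 0.12 for CBX1 and 0.55 ± 0.13 for CBX1_W42A against the control (edgeR quasi-likelihood, adjusted p = 0.0341 and 0.0361), both under the fold threshold. GABPB1-AS1, antisense to a subunit gene of the factor GABP, had 35, 30.2 and 40.6 CPM in the control libraries, 45.6, 46.9 and 41.7 CPM in the CBX1 libraries and 46.5, 42.5 and 37.7 CPM in the CBX1_W42A libraries, with CBX1 above the control by 0.37 ± 0.12 (edgeR quasi-likelihood, adjusted p = 0.036).

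PVT1, the long noncoding gene next to MYC, had 23.1, 30.4 and 23.5 CPM in the control libraries, 33, 32.4 and 29.4 CPM in the CBX1 libraries and 34, 36.2 and 27.1 CPM in the CBX1_W42A libraries (0.33 ± 0.13 for CBX1, edgeR quasi-likelihood adjusted p = 0.0798). DANCR, a suppressor of differentiation, had 23.3, 37.2 and 26 CPM in the control libraries, 33.2, 23.5 and 34.4 CPM in the CBX1 libraries and 34.7, 21.6 and 29.6 CPM in the CBX1_W42A libraries (0.11 ± 0.17), and OIP5-AS1, also known as cyrano, had 78.5, 72.8 and 83.1 CPM in the control libraries, 71.8, 72 and 71.5 CPM in the CBX1 libraries and 75.7, 64.2 and 60.9 CPM in the CBX1_W42A libraries (−0.10 ± 0.09). The groups of PVT1 and DANCR overlapped, and those of OIP5-AS1 did not for CBX1, which lay below the control by less than the test could call (edgeR quasi-likelihood, adjusted p = 0.491). MIR31HG, the host of miR-31, had 0.877, 1.92 and 1.21 CPM in the control libraries, 2, 2.66 and 1.55 CPM in the CBX1 libraries and 2.55, 2 and 2.12 CPM in the CBX1_W42A libraries, with 0.66 ± 0.42 for CBX1. RMST, a neural transcript, had 2 counts in CBX1 replicate 1 and 0 in the other 8 libraries. MIR600HG had 0 counts in all 9 libraries, with 0.1% of its span free of same-strand genes. No fold was computed for RMST or MIR600HG.

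The second comparison asked what the reader captured with the substitution in its chromodomain, against the same 3 control libraries. With CBX1_W42A, 7 of 285 tested members (2.46%) were enriched, against 0.974% of all 18680 genes tested, and 0 were depleted, against 0.0214%. At an unadjusted p below 0.05, 1 of the 285 members was lower, against 1795 of all 18680 genes tested. DESeq2 called 0 members depleted. The median log2 fold change of the members was 0.33, and 0.01 over all genes. All 7 were processed_transcript genes, and in all 7 the CBX1_W42A libraries lay above the control libraries, as they did in 63 of the 285 tested members (22.1%) and in 2246 of all genes tested (12%). Antisense genes outside chromosome 19 had 30 of 1711 enriched (1.75%) and lincRNA genes 17 of 1147 (1.48%).

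The library values of 5 of the 7 are given above. Against control, CBX1_W42A gave 1.48 ± 0.30 for RP11-933H2.4, 1.43 ± 0.35 for TMEM51-AS1, 1.32 ± 0.31 for CTD-2555K7.2, 1.23 ± 0.26 for RP4-605O3.4 and 0.96 ± 0.21 for RP11-106M3.2. Their edgeR quasi-likelihood adjusted p-values were 0.0177, 0.0369, 0.0306, 0.0234 and 0.0234. ENSG00000253125.1 (chr8:22547663-22656129, plus strand), which lies opposite PEBP4 and EGR3, had 3.02, 2.26 and 2.43 CPM in the control libraries, 5.78, 3.11 and 3 CPM in the CBX1 libraries and 4.73, 4.53 and 7.93 CPM in the CBX1_W42A libraries. CBX1_W42A exceeded the control without overlap (1.14 ± 0.29, edgeR quasi-likelihood adjusted p = 0.0446), while CBX1 overlapped both other groups (0.63 ± 0.32, adjusted p = 0.171). RP11-529K1.2, the last of the 7 by p and named to complete them after its values were seen, had 2.34, 2.94 and 4.85 CPM in the control libraries, 7.11, 7.43 and 8.41 CPM in the CBX1 libraries and 6.46, 6.31 and 8.25 CPM in the CBX1_W42A libraries, with 1.07 ± 0.28 for CBX1_W42A and 1.23 ± 0.26 for CBX1 (edgeR quasi-likelihood, adjusted p = 0.0459 and 0.0037).

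The 7 calls rest on all 6 libraries. Without Control replicate 1 or without CBX1_W42A replicate 2 a single member was called. It was 2 without Control replicate 3, 3 without CBX1_W42A replicate 3, and 4 without Control replicate 2 or without CBX1_W42A replicate 1. Of those 4, only 2 were among the 7 without Control replicate 2 and 3 without CBX1_W42A replicate 1. Without each of the other libraries, all members called were among the 7. TMEM51-AS1 and ENSG00000253125.1 lost the call without any 1 of the 6 libraries (edgeR quasi-likelihood, adjusted p = 0.0506 to 0.111 and 0.052 to 0.202). CTD-2555K7.2 lost it without any of these but CBX1_W42A replicate 3 (0.051 to 0.0937), and RP11-933H2.4 without Control replicate 1, Control replicate 3 or CBX1_W42A replicate 2 (0.0508 to 0.0622). RP4-605O3.4 lost it without Control replicate 2, Control replicate 3 or CBX1_W42A replicate 3 (0.0598 to 0.0746), and RP11-106M3.2 without Control replicate 1 or CBX1_W42A replicate 2 (0.0832 to 0.0934). RP11-529K1.2 kept it only without Control replicate 3 and had 0.0672 to 0.171 without each of the other 5 libraries, at log2 fold changes of 0.86 to 1.13. Since both readers were compared with the same control libraries, an unusual control value moves both fold changes of a transcript at once.

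The third comparison set the 2 readers against each other and shares no control library. Of 298 tested members, 2 (0.671%) were higher with CBX1, against 0.795% of all 19360 genes tested, and 0 were lower, against 0.201%. At an unadjusted p below 0.05, 5 of the 298 members were lower with CBX1 and 29 were higher. Of all 19360 genes tested, 1627 were lower and 1593 higher at that p. DESeq2 called 2 members higher and 0 lower. The median log2 fold change of the members was 0.13, and 0.00 over all genes. For the other members the test gave no call in either direction, which does not show that the readers captured them alike.

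PTPRG-AS1 (chr3:62246540-62355005, minus strand; start region shown above) is antisense to PTPRG, which encodes a receptor-type tyrosine phosphatase. It had 3.12, 4.29 and 3.88 CPM in the control libraries, 9.56, 9.65 and 6.47 CPM in the CBX1 libraries and 3.09, 4.1 and 4.65 CPM in the CBX1_W42A libraries. The CBX1 libraries stood above all others, and the control and CBX1_W42A libraries covered the same range. CBX1 exceeded CBX1_W42A by 1.11 ± 0.24 on the log2 scale (edgeR quasi-likelihood, adjusted p = 0.0155) and the control by 1.21 ± 0.23 (adjusted p = 0.00221), while CBX1_W42A against control gave 0.07 ± 0.28 (adjusted p = 0.92).

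The 2 coding genes opposite PTPRG-AS1 behaved differently from each other. PTPRG overlaps 33.9% of its span and had 45.1 to 48.3 CPM with the control, 39.0 to 44.9 CPM with CBX1 and 41.6 to 51.8 CPM with CBX1_W42A. C3orf14 overlaps 15.9% and had 15.1, 24.1 and 16 CPM with the control, 32.7, 26.7 and 33.8 CPM with CBX1 and 17.8, 21.3 and 18.2 CPM with CBX1_W42A. Like the transcript on the other strand, C3orf14 was higher with CBX1 than with CBX1_W42A, by 0.70 ± 0.14 (edgeR quasi-likelihood, adjusted p = 0.00811), and than with the control, by 0.79 ± 0.16 (adjusted p = 0.00318). PTPRG gave −0.13 ± 0.12 between the readers (adjusted p = 0.64).

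Z84812.4 (chr16:67514-85195, minus strand) lies near the end of the short arm, beside copies of WASH and interleukin 9 receptor genes, and these near-identical copies make its counts uncertain. It had 2.53, 4.18 and 4.73 CPM in the control libraries, 9, 8.65 and 8.41 CPM in the CBX1 libraries and 4.37, 5.16 and 4.97 CPM in the CBX1_W42A libraries. CBX1 was above both other groups without overlap, and CBX1_W42A overlapped the control. The differences were 0.85 ± 0.21 from CBX1_W42A (edgeR quasi-likelihood, adjusted p = 0.0342) and 1.23 ± 0.24 from the control (adjusted p = 0.00209). IL9RP3, a receptor pseudogene that shares 33.1% of its span on the same strand, was enriched with CBX1 against the control by 1.13 ± 0.29 (adjusted p = 0.0131) and gave 0.53 ± 0.30 between the readers (adjusted p = 0.391). WASH4P, which shares 11%, gave 0.30 ± 0.25 against the control and 0.38 ± 0.26 between the readers.

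**Figure D5:**
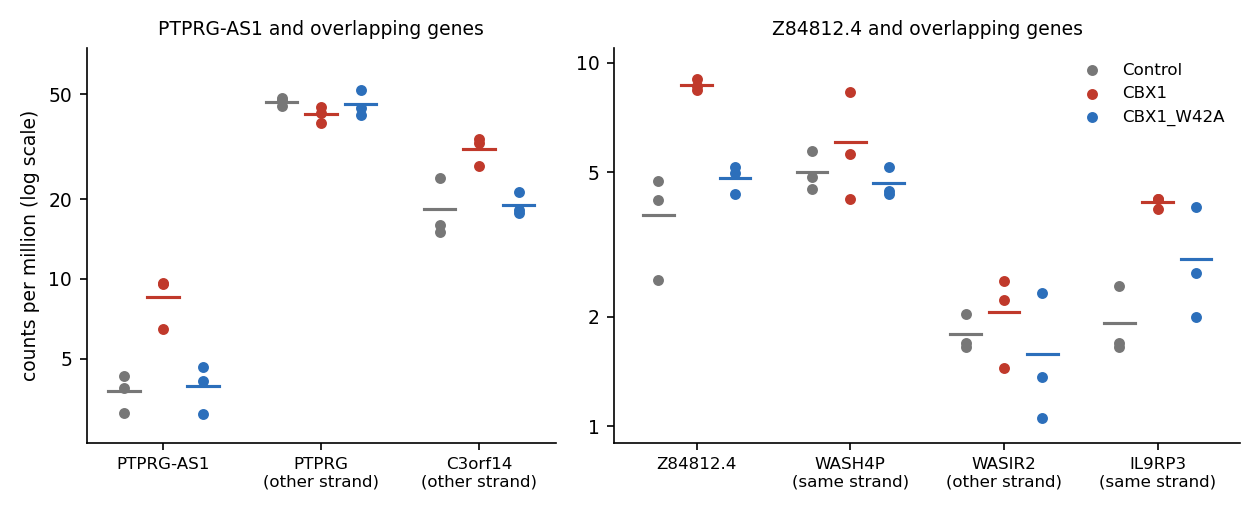
Level in CPM (vertical axis, log scale) of PTPRG-AS1 (left) and Z84812.4 (right) and of the tested genes whose spans overlap them, with their strand relative to the transcript; each point is a library, coloured by group, and the line is the mean of 3 libraries. PTPRG-AS1 and C3orf14 stand higher in the CBX1 libraries than in both other groups, PTPRG does not.

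Both calls between the readers depend on single libraries. PTPRG-AS1 had adjusted p-values of 0.091, 0.0503 and 0.0574 without CBX1 replicate 1, CBX1 replicate 2 and CBX1_W42A replicate 1 (edgeR quasi-likelihood), at log2 fold changes of 0.96 to 1.03. Z84812.4 had 0.0673 to 0.142 without any 1 of the CBX1 replicates or without CBX1_W42A replicate 1 or 3, at log2 fold changes of 0.78 to 0.87.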

How the data were processed

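The authors counted reads per gene: per the submitters' processing notes they used fastp (version 0.23.1), HISAT2 (version 2.1.0) on hg19, featureCounts (version 2.0.1) and DESeq2 (version 1.34.0), with GENCODE version 19 named in the methods, and deposited the counts without normalization. The strand setting is not given in the sources used here and was read from the counts. Random bases at the read ends were trimmed, and no step that collapses PCR duplicates is given in the sources used here, so counts are reads and not molecules. Poly(A) selection and counting over whole spans decide which transcripts can show a count.

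Libraries were grouped by their labels, and 0 columns were left unused. The 6 libraries of each comparison, with 8379542 to 11082852 counts each, were tested with edgeR (version 4.0.16, R version 4.3.3) by its quasi-likelihood test with TMM factors and Benjamini-Hochberg adjustment over all genes whose counts summed to more than 18. A member was called enriched or depleted when its adjusted p was under 0.05 and its log2 fold change reached 0.75 or −0.75, and these thresholds and the filter follow the study's methods. The SE given with a log2 fold change is the absolute fold change divided by the square root of the test's F statistic. CPM used TMM factors over all 9 libraries. Intervals cover counting error only. On simulated counts with 200 genes changed by 1.5 on the log2 scale, the test recovered 195 for CBX1 against control (18837 genes), 196 for CBX1_W42A against control (18680) and 198 between the readers (19360). It also called 3, 7 and 5 unchanged genes in that order. The changed genes were drawn only from genes above a minimum mean count, so recovery of members with low counts was not tested.

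Alternatives were DESeq2 (version 1.42.0), its size factors in edgeR, library sizes alone, no filter, edgeR's own filter, all 9 libraries in 1 fit, a replicate block, leaving out each library, a log2 threshold of 1, and members that share no span on their strand. Replicates compared by chi-square differed by more than sampling noise, with 4.65 to 11.4 per degree of freedom, and none were identical.

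The members, lists and tests were chosen with earlier results of these data known. Named transcripts were, by smallest p, up to 12 enriched with CBX1 in every library, 6 with CBX1_W42A, those called between the readers and 4 each of the sense_overlapping and sense_intronic type, then the 4 with the highest CPM, the 2 with the highest CPM per kb, the members of a list of 22 known noncoding RNAs (6 found) and the 3 microRNA host genes, with the genes that overlap them. Depleted members would have been named likewise. Windows and version 44 gene types came from GRCh37 and its lifted GENCODE version 44. Tables and plots were made in Python (version 3.11.15) with matplotlib (version 3.10.9), pandas (version 2.3.3) and numpy (version 2.4.6). Raw reads and other readers were not analysed here. The result of 1 marker gene is not reported here.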

Additional observations from a re-analysis of the deposited data

Results flagged for a closer look

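PTPRG-AS1 was flagged because the direct comparison of the 2 readers passed the test: its level was 8.56 ± 1.81 CPM with CBX1 and 3.95 ± 0.79 CPM with CBX1_W42A (SD, n = 3 each), a log2 difference of 1.11 ± 0.24 (SE). Such calls were no more frequent among the members (2 of 298, 0.671%) than over all genes tested (0.795%). All CBX1 libraries lay above all CBX1_W42A libraries in 13.1% of the tested members and in 10.3% of all genes tested. Higher values were seen in 3 of 3 CBX1 libraries than in any CBX1_W42A library (edgeR quasi-likelihood, adjusted p = 0.0155).

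Z84812.4 was flagged for the same reason, with 8.69 ± 0.30 CPM with CBX1 and 4.83 ± 0.41 CPM with CBX1_W42A (SD, n = 3 each), a log2 difference of 0.85 ± 0.21 (SE). All 3 CBX1 libraries were above all 3 CBX1_W42A libraries (edgeR quasi-likelihood, adjusted p = 0.0342).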

How the results depend on the processing

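Of the 50 members enriched with CBX1, DESeq2 shared 40 and called 40, edgeR with DESeq2's size factors called 48, library sizes alone 64, no filter 59, edgeR's own filter 50 (44 shared) and all 9 libraries in 1 fit 49. Leaving out 1 library gave 35 to 48 enriched, of which 33 to 41 were among the 50, and 0 to 1 depleted. With CBX1_W42A the 7 became 1 to 4 when a library was left out, 1 to 3 of them among the 7. They became 6 to 10 under the other fits and at a log2 threshold of 1. Between the readers, the 2 enriched members became 0 to 2 without a library and 1 at a log2 threshold of 1. RP11-298J20.4 was the 1 member depleted without the filter on low counts (log2 fold change −1.03), under the replicate block (−0.99) and without CBX1_W42A replicate 3 (−1.29), and RP11-196G18.22 was the 1 without CBX1 replicate 2 (−0.78), so that leaving out a library gave 0 to 1.

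Among the members that share no span on their strand, 21 were enriched with CBX1, 4 with CBX1_W42A and 1 between the readers, with median log2 fold changes of 0.34, 0.25 and 0.060. With library sizes alone the medians were 0.56, 0.41 and 0.17, beside 0.12, 0.086 and 0.037 over all genes, and without a filter the first was 0.55. Leaving out a library moved them over 0.41 to 0.49, 0.30 to 0.37 and 0.12 to 0.17. For CBX1 against control, RP11-705C15.3 ran from −0.71 to 0.15 as each library was left out, turning to 0.025 without Control replicate 3 and 0.15 without CBX1 replicate 3, and DANCR ran from −0.038 (without Control replicate 1) to 0.32, with no call for either. The cause was not tested.

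The correlations of same-numbered libraries were −0.19, −0.22 and 0.043 for CBX1 and control, −0.11, 0.14 and 0.13 for CBX1_W42A and control, and 0.17, 0.082 and 0.12 for the readers. Those of differently numbered libraries ran from −0.049 to 0.22, from −0.28 to 0.19 and from −0.19 to 0.086 in that order. Same-numbered libraries thus did not stand out against the control, and they lay toward the upper end between the readers. Whether replicate numbers pair the libraries was not tested. With the replicate block 40, 8 and 2 members were enriched. Counts of a few reads per library limit what could be called: 174 members with counts were too low to test in CBX1 against control.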
